A study of Mus musculus with 3 samples.

Results

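The amyloid precursor protein gene App, its paralogs Aplp1 and Aplp2, 5 genes of the enzymes that cut the precursors (Bace1, Adam10, Psen2, Ncstn and Aph1a) and Itm2b, whose product BRI2 binds the precursor, were taken by name from the gene rows of the count files. They are 9 of 32531 genes, and all 9 have a row in every library. The study profiled the RNA on tagged ribosomes from the deep nuclei of the cerebellum, the main output station of that structure, in adult Htr6-TRAP (NIDA113) mice of the C57BL/6J strain. These mice carry an EGFP fusion of the ribosomal protein Rpl10a, driven, as the name of the line gives it, by the serotonin receptor gene Htr6, so an antibody to EGFP pulls down ribosomes with their RNA from the cells in which that driver is active. There is 1 group of 3 immunopurified libraries (replicates 1, 2 and 3), all with the same transgene and no treatment named in the labels. No unpurified RNA of the tissue was analysed here, so no enrichment relative to whole tissue can be given. The number of animals behind each library is not given in the sources used here, and the spread between the 3 libraries may in part be technical.

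The libraries held between 7622010 and 8842058 reads counted to genes, and between 13095 and 13951 genes with a read in each. Of the 16071 genes with a count in any library, 56% reached 10 counts in each, the share to read beside the marker counts here. Of 12 general neuronal marker genes, all 12 reached 10 counts in each library, with summed levels of 26741, 24822 and 18838 CPM (counts scaled to TMM-normalised library sizes) in replicates 1, 2 and 3. Of 9 marker genes of the glutamatergic neurons of the deep nuclei, 6 reached 10 counts in each library, with summed levels of 740, 522 and 479 CPM. Slc17a6, the vesicular glutamate transporter of these neurons, was among them, and Lmx1b was at 0 in all 3 libraries. Markers of other cerebellar cells were present: 11 of 12 granule cell genes, 10 of 12 Purkinje cell genes, 10 of 10 genes of astrocytes and Bergmann glia and 9 of 10 oligodendrocyte genes had at least 10 counts in every library. Of 10 microglial genes 2 did, and C1qa, Aif1 and Trem2 were at 0 in all 3 libraries; of 8 vascular genes 6 did, and Cldn5 was at 0 in all 3. By replicate, summed levels were 4086, 4771 and 4911 CPM for granule cells and 6098, 8086 and 7746 CPM for Purkinje cells. They were 2629, 2664 and 3067 CPM for astrocytes and Bergmann glia and 3528, 4063 and 3175 CPM for oligodendrocytes. Each of these sums was above that of the deep nuclei list in every library, whereas the microglial and vascular sums were below it. The lists hold different genes, so their sums do not give proportions of cells. In such bulk RNA, fewer cells of a type and less RNA per cell cannot be told apart.

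The precursors are membrane proteins found in neurons, with a large outer part and a short cytoplasmic tail. ADAM10, the main alpha-secretase, cuts the amyloid precursor protein inside the amyloid beta stretch, whereas BACE1, the beta-secretase, makes the first cut that leads to amyloid beta. The stub that either cut leaves in the membrane is then cut by gamma-secretase, a complex of a presenilin, nicastrin, an APH1 protein and PEN2. The paralogs Aplp1 and Aplp2 are cut by the same enzymes but lack the amyloid beta sequence, and BRI2, named for human familial dementias caused by mutations of its gene, is known to limit cleavage of the precursor.

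The 3 precursor transcripts share the part that encodes the end of the cytoplasmic tail, shown here because adaptor proteins dock on it. Each line gives 72 bases of the principal GENCODE M21 transcript (mm10), 5′ to 3′ on the strand of the gene, with the codons of the NPxY docking motif in capitals.
App: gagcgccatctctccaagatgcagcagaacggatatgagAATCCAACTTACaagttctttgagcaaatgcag
Aplp1: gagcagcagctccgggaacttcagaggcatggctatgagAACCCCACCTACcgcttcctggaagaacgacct
Aplp2: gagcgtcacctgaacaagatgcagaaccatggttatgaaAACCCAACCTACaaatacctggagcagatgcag
The motif occurs 1 time in each coding sequence, of 695, 654 and 751 codons for App, Aplp1 and Aplp2, and ends 24, 21 and 24 bases before the stop codon. App and Aplp2 were identical at 54 of the 72 bases (75%), Aplp1 and Aplp2 at 44 (61.1%), and App and Aplp1 at 42 (58.3%). Within the 12 bases of the motif, 10, 11 and 9 were identical in the same pairs. App lies on chromosome 16 (84949685 to 85173766, minus strand), Aplp1 on chromosome 7 (30434982 to 30445535, minus strand) and Aplp2 on chromosome 9 (31149557 to 31211815, minus strand) of mm10.

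All 3 precursor genes were among the abundant transcripts of the purified RNA, and Aplp2 was the highest of them in every library. Aplp2, a ubiquitously expressed paralog, had 9006, 11582 and 14495 counts in replicates 1, 2 and 3, and its level was 1456 ± 356 CPM (SD, n = 3), rank 59 by mean CPM. App, which encodes the amyloid precursor protein itself, had 4335, 5815 and 5905 counts, with a level of 664 ± 92.0 CPM (SD, n = 3) and rank 210. Aplp1, the paralog largely restricted to neurons, had 3864, 3651 and 3490 counts, with a level of 458 ± 49.4 CPM (SD, n = 3) and rank 356. Replicate 3 held the highest Aplp2 and App values, whereas Aplp1 was highest in replicate 1. Of the 9 genes, 4 (these and Itm2b) had a mean of at least 100 CPM, against 12.9% of the 16071 genes with a count in any library.

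Levels of different genes compare only per length of transcript, and for App the choice of length matters. Per kilobase of all annotated exonic bases, Aplp2 stood at 203, 224 and 317 RPKM (CPM per kilobase of transcript) in replicates 1, 2 and 3. Aplp1 stood at 169.6, 137 and 148 RPKM on that scale. App stood at 44.2, 50.8 and 58.3 RPKM. The exonic bases annotated for App sum to 12996, because some transcripts carry long ends, whereas its principal transcript has 3176 bases; the same lengths are 3017 and 2343 bases for Aplp1 and 5875 and 3634 bases for Aplp2. With the principal transcript as the length, App stood at 180.7, 208 and 239 RPKM, Aplp1 at 218, 177 and 191 RPKM, and Aplp2 at 328, 362 and 512 RPKM. Aplp2 was above both of the others in all 3 libraries with either length, and App was below Aplp1 in all 3 libraries with the exonic length but above it in 2 of 3 with the principal transcript.

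**Figure D1:**
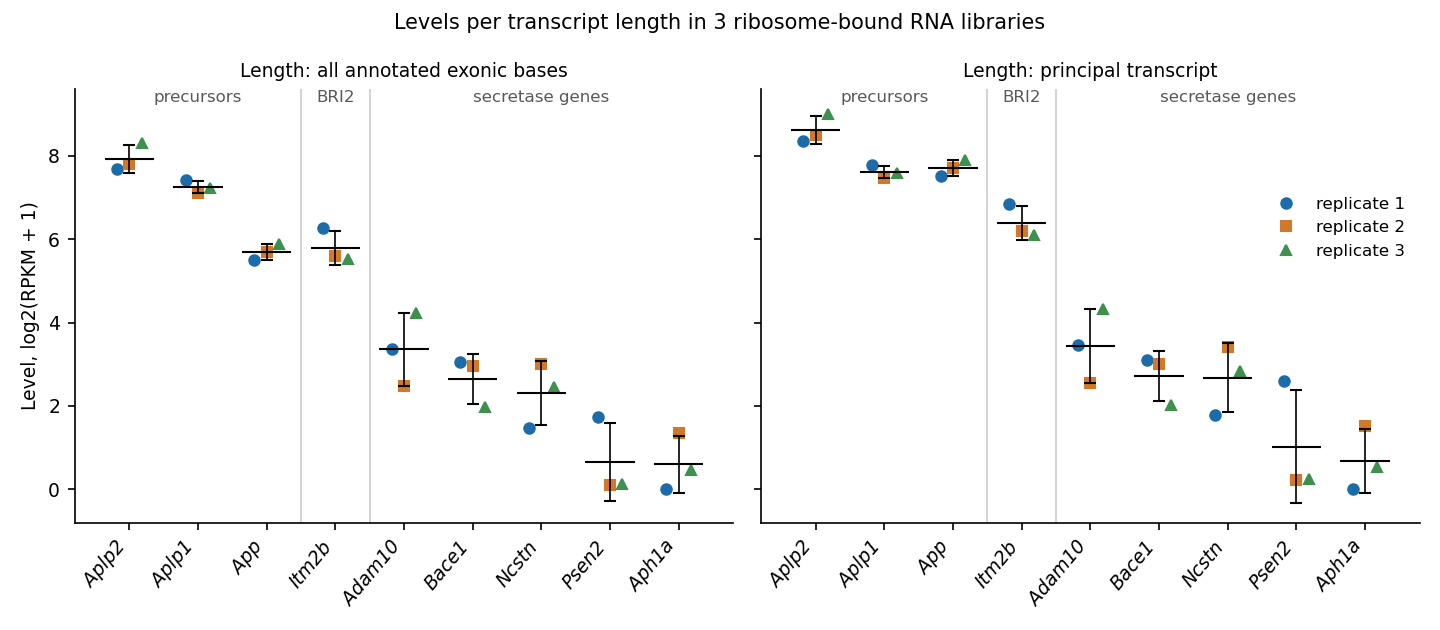
Level of each of the 9 genes per transcript length, log2(RPKM + 1), in replicates 1, 2 and 3, with the mean (wide line) and SD (error bar, n = 3), using all exonic bases (left panel) or the principal transcript (right panel) as the length. The precursors lie above the secretase genes in both panels, and App moves up beside Aplp1 in the right panel, at 209 against 195 RPKM on average.

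In differences within a library, log2(RPKM + 1) with exonic lengths, App minus Aplp2 was -2.24 ± 0.16 (SD, n = 3), with values of -2.17, -2.12 and -2.42 in replicates 1, 2 and 3. Aplp1 minus Aplp2 was -0.68 ± 0.42 (SD, n = 3), with values of -0.26, -0.70 and -1.09. Both differences were negative in 3 of 3 libraries with every length used, and on CPM as well. App minus Aplp1 was -1.56 ± 0.32 (SD, n = 3) with exonic lengths and 0.093 ± 0.32 with principal transcripts, so these data give no order of App and Aplp1 that holds with both lengths. Each of the 3 pairs with exonic lengths had an exact two-sided sign-flip permutation p of 0.25, which is the smallest that 3 libraries can give; no difference in this report can reach 0.05, and over the 10 differences computed the adjusted p of these pairs was 0.417.

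As shares of the summed RPKM of the family with exonic lengths, Aplp2 made up 48.7%, 54.3% and 60.5% in replicates 1, 2 and 3, Aplp1 40.7%, 33.3% and 28.4%, and App 10.6%, 12.3% and 11.1%. The App share differed little between libraries, and since shares sum to the whole, a larger Aplp2 share there meant a smaller Aplp1 share. With principal transcripts the mean shares were 49.3% for Aplp2, 24.7% for Aplp1 and 26.0% for App. Summed marker levels of granule cells (4086, 4771 and 4911 CPM) and of astrocytes and Bergmann glia (2629, 2664 and 3067 CPM) were also highest in replicate 3, where Aplp2 was highest; their part in the Aplp2 values was not tested.

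**Figure D2:**
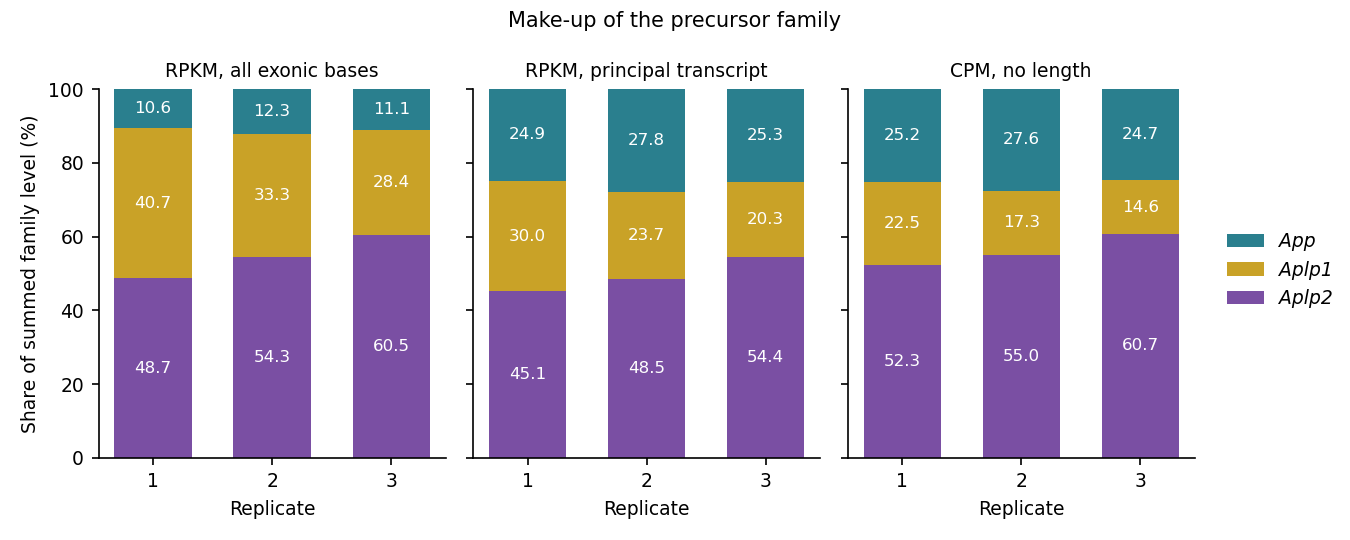
Share (%) of the summed level of the precursor family taken by App, Aplp1 and Aplp2 in replicates 1, 2 and 3, on 3 scales (RPKM with all exonic bases, RPKM with the principal transcript, and CPM with no length). Aplp2 is the largest block in every bar, from 45.1% to 60.7%, and the App block is taller with the principal transcript or with no length than with all exonic bases.

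The genes of the first cut were present at far lower levels. Adam10 (chromosome 9, 70678997 to 70780229, plus strand), the alpha-secretase gene, had 348, 197 and 679 counts in replicates 1, 2 and 3, or 9.38, 4.55 and 17.7 RPKM with exonic lengths, the scale of all RPKM values from here on. Bace1 (chromosome 9, 45838580 to 45864399, plus strand), the beta-secretase gene, had 348, 377 and 144 counts, or 7.26, 6.74 and 2.91 RPKM. In replicate 3 Adam10 was at its highest and Bace1 at its lowest, and in replicate 2 Bace1 was the higher of the pair. Adam10 minus Bace1 was 0.70 ± 1.41 on the log2(RPKM + 1) scale (SD, n = 3; 0.33, -0.48 and 2.26 in replicates 1, 2 and 3; exact two-sided sign-flip permutation p = 0.75, adjusted p = 0.938). Without replicate 3 it was -0.075, so the mean rests on that library, and the 2 genes did not differ beyond the spread. Of the exonic bases of Bace1, 32.5% are overlapped by genes on the other strand, mainly Rnf214, and without knowledge of the strand setting reads there cannot be assigned to either gene.

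Of the gamma-secretase genes among the 9, Psen2 and Aph1a were the lowest of all 9 on average and the most uneven, whereas Ncstn was at a level like that of Bace1. Ncstn (chromosome 1, 172066013 to 172082795, minus strand) encodes nicastrin, the large outer subunit, and had 53, 245 and 140 counts in replicates 1, 2 and 3, or 1.77, 6.995 and 4.52 RPKM. Psen2 (chromosome 1, 180227004 to 180263438, minus strand), a presenilin gene for the catalytic subunit, had 77, 3 and 3 counts, or 2.35, 0.0786 and 0.0889 RPKM. Nearly all of its reads thus came from replicate 1. Aph1a (chromosome 3, 95893969 to 95898288, plus strand), which encodes a scaffold subunit, had 0, 47 and 10 counts, or 0, 1.55 and 0.372 RPKM. The 0 in replicate 1 allows up to 3 counts, or 0.115 RPKM for this gene, as counting error alone. For Aph1a, 47.9% of the 50-base windows of its longest coding transcript also occur in transcripts of other genes, mostly the pseudogene Gm15429, and reads that aligned to several places were not counted, so its level is uncertain.

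Ncstn minus Psen2 was 1.65 ± 1.69 on the log2(RPKM + 1) scale (SD, n = 3; exact two-sided sign-flip permutation p = 0.5, adjusted p = 0.714) and was positive in 2 of 3 libraries. Aph1a minus Psen2 was -0.058 ± 1.53 (SD, n = 3; exact two-sided sign-flip permutation p = 1.0) and became 0.79 without replicate 1. Aph1a minus Ncstn was -1.71 ± 0.28 (SD, n = 3; exact two-sided sign-flip permutation p = 0.25), negative in 3 of 3 libraries. Bace1 minus the median of Psen2, Ncstn and Aph1a was 1.58, 1.60 and 1.51 in replicates 1, 2 and 3, with a mean of 1.56 ± 0.048 (SD, n = 3; exact two-sided sign-flip permutation p = 0.25, adjusted p = 0.417). The median was set by Ncstn in replicate 1 and by Aph1a in replicates 2 and 3, so its small SD is not that of a single gene. The size and the SD both depend on the scale, at 2.81 ± 0.27 on CPM and 2.24 ± 0.38 with a pseudocount of 0.1 (SD, n = 3 each).

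Most other secretase genes of the pathway were low as well, with Psenen the highest of them on average. Psenen, the PEN2 gene, had 170, 0 and 350 counts in replicates 1, 2 and 3, or 17.7, 0 and 35.2 RPKM, with 39% of its 50-base windows also present in other transcripts. Aph1b had 87, 400 and 432 counts, and its near copy Aph1c, named to complete the group after its values were seen, had 0, 55 and 136; 19.7% of the windows of Aph1b and 18.5% of those of Aph1c also occur in other transcripts, mostly of each other. Adam9, another alpha-secretase candidate, had 112, 246 and 95 counts, and Adam17, the tumour necrosis factor converting enzyme, had 35, 78 and 59. Bace2, the relative of Bace1 best known from peripheral tissue, had 9, 20 and 3 counts, or 0.163 ± 0.12 RPKM (SD, n = 3). Of the 7 genes on this list, 4 reached 10 counts in each library and none had a mean of 100 CPM. Over the 16071 genes with a count in any library, 56% reached 10 counts in each and 12.9% a mean of 100 CPM.

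**Figure D3:**
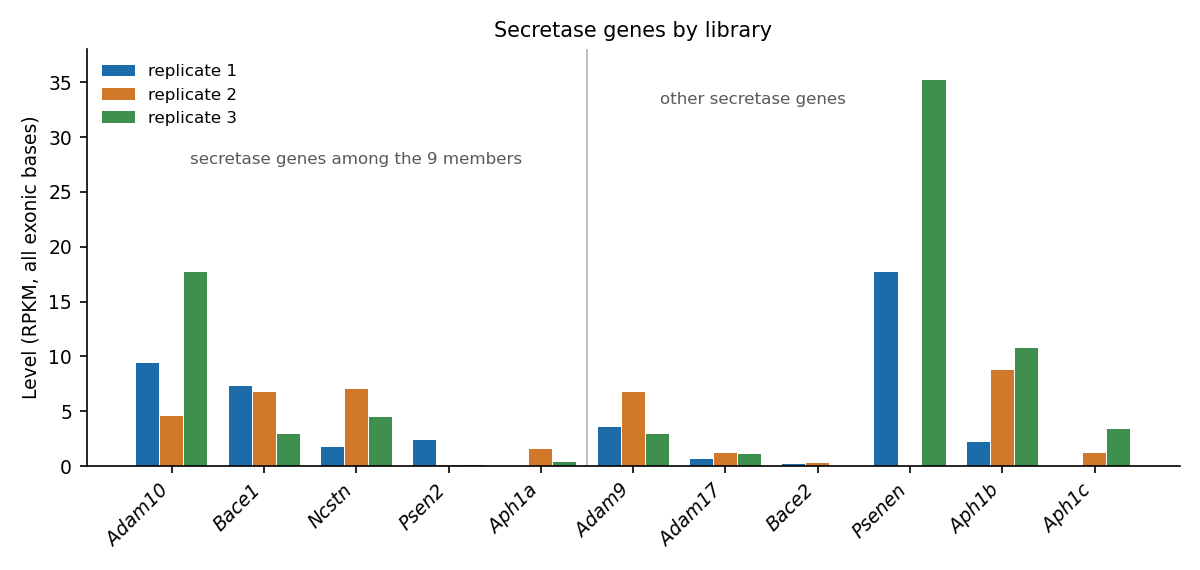
Level (RPKM with all exonic bases) of the 5 secretase genes among the 9 and of other secretase genes of the pathway, with 1 bar for each of replicates 1, 2 and 3. Bars of the same gene differ several-fold between libraries for Adam10, Psen2, Ncstn and Psenen, and Psenen reaches 35.2 RPKM in replicate 3.

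Itm2b (chromosome 14, 73362226 to 73385289, minus strand) was above every one of the 5 secretase genes and below Aplp1 and Aplp2 in each library. It had 1556, 1137 and 952 counts in replicates 1, 2 and 3, or 75.4, 47.2 and 44.7 RPKM, with a mean of 152 ± 46.5 CPM (SD, n = 3). Replicate 1 was the highest. The summed markers of neurons and of deep nuclei glutamatergic neurons were also highest in that library, but their median levels were lowest there, at 59.8, 61.6 and 61.6 RPKM for neurons and 0.753, 3.19 and 2.25 RPKM for the deep nuclei list in replicates 1, 2 and 3; their part was not tested. Itm2b minus App was 0.094 ± 0.59 on the log2(RPKM + 1) scale with exonic lengths (SD, n = 3; exact two-sided sign-flip permutation p = 1.0) and positive in 1 of 3 libraries. With principal transcripts as the length it was -1.32 ± 0.60 and negative in 3 of 3. Its relatives were lower per length, Itm2c at 4.49 ± 1.65 and Itm2a at 2.61 ± 0.75 RPKM against 55.8 ± 17.0 RPKM for Itm2b (SD, n = 3 each).

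Set against each other, the precursor genes were far above the secretase genes in every library. The median of App, Aplp1 and Aplp2 minus the median of Bace1, Psen2, Ncstn, Aph1a and Adam10, log2(RPKM + 1), was 5.67, 4.64 and 5.26 in replicates 1, 2 and 3. The mean difference was 5.19 ± 0.52 (SD, n = 3), or 36.5-fold on that scale, and was positive in 3 of 3 libraries (exact two-sided sign-flip permutation p = 0.25, adjusted p = 0.417). Aplp1 set the precursor median in each library. The secretase median was set by Psen2, Adam10 and Bace1 in replicates 1, 2 and 3, so its SD is not that of a single gene. The groups did not overlap: the lowest precursor exceeded the highest secretase gene 4.71-fold, 7.26-fold and 3.29-fold in RPKM, App being the lowest precursor each time and Adam10, Ncstn and Adam10 the highest secretase gene. With principal transcripts as the length the same ratios were 18.0, 18.5 and 10.1. Adding the 7 other secretase genes to the secretase side gave a difference of 5.46 ± 0.27 (SD, n = 3). With all 12 secretase genes, App exceeded the highest of them 2.502-fold, 5.78-fold and 1.66-fold in RPKM in replicates 1, 2 and 3, the highest being Psenen, Aph1b and Psenen.

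Summed over genes, the precursors held 417, 412 and 523 RPKM in replicates 1, 2 and 3, against 20.8, 19.9 and 25.6 RPKM for the 5 secretase genes. The ratio of these sums was 20.1, 20.7 and 20.4, a mean of 20.4 ± 0.31 (SD, n = 3). The make-up of the secretase sum was less even. Adam10 took 45.2%, 22.9% and 69.2% of it in replicates 1, 2 and 3, Bace1 35.0%, 33.9% and 11.4%, and Ncstn 8.51%, 35.1% and 17.6%. With principal transcripts the ratio of the sums was 29.0, 31.7 and 32.6, and on CPM 20.8, 24.2 and 24.5, so its closeness between libraries depends on the length used. In all, the precursors took 0.224%, 0.238% and 0.313% of the gene counts, and the secretase genes 0.0107%, 0.00983% and 0.0128%.

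**Figure D4:**
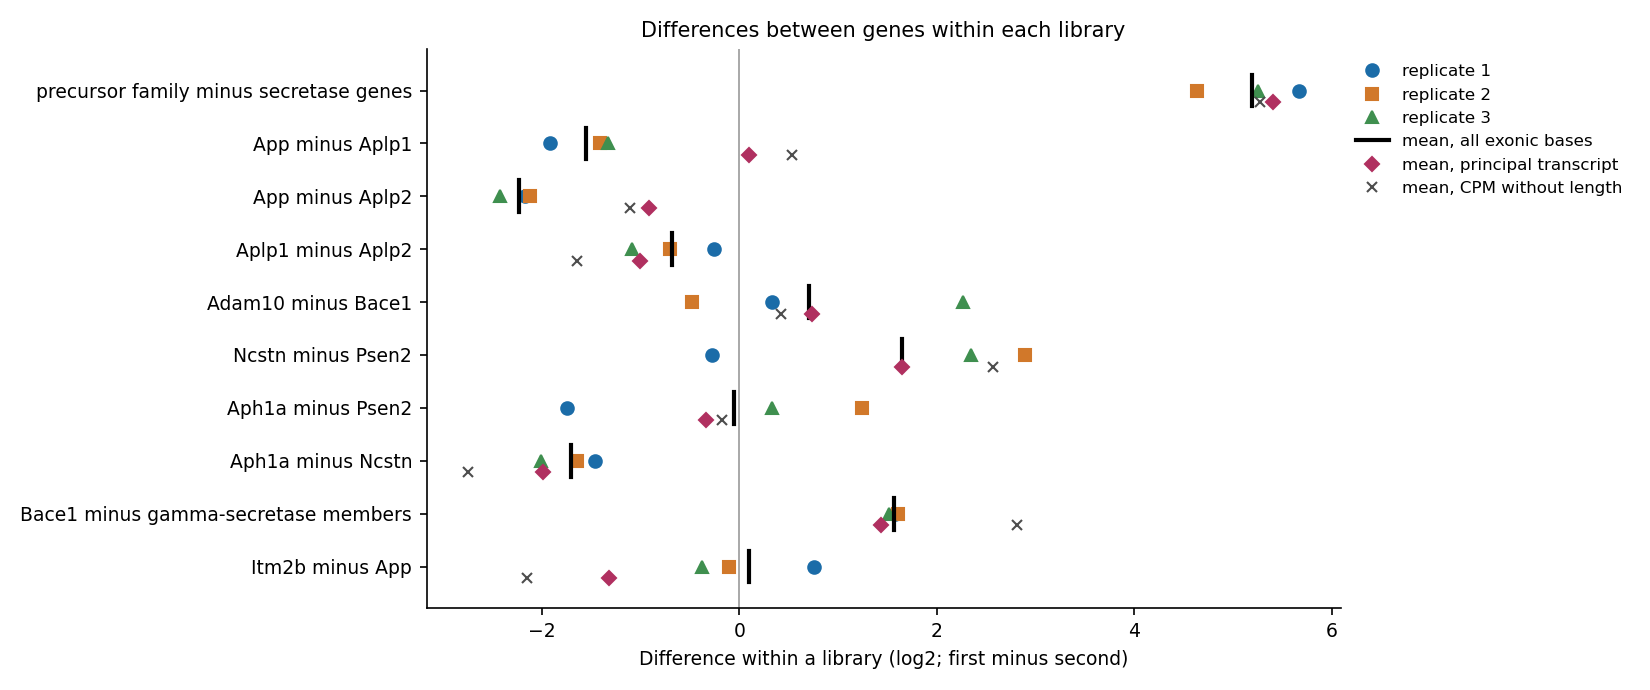
Difference within a library (log2; the first named gene or group minus the second) for the 10 comparisons, with 1 point for each of replicates 1, 2 and 3, the mean with exonic lengths (black line), the mean with principal transcripts (diamond) and the mean on CPM (cross). The precursor family minus secretase genes lies between 4.64 and 5.67, and the marks for App minus Aplp1 and for Itm2b minus App fall on both sides of 0.

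By mean log2(RPKM + 1) with exonic lengths the order of the 9 genes was Aplp2, Aplp1, Itm2b, App, Adam10, Bace1, Ncstn, Psen2 and Aph1a. Neighbours differed by more than the SD of their difference for Aplp2 and Aplp1, Aplp1 and Itm2b, and App and Adam10. The other neighbours, Itm2b and App and all 4 pairs among the secretase genes, did not. At least 10 counts in every library were found for 7 of the 9 genes, the exceptions being Psen2 and Aph1a, against 56% of the 16071 genes with a count.

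The 9 genes differed in how evenly they were measured. Aplp1 had the smallest coefficient of variation over the 3 libraries, 10.8%, and App followed with 13.9%, against a median of 26.3% over the 1953 genes between 100 and 1000 CPM. Itm2b, in the same range of level, varied by 30.5%, against that median of 26.3%. Aplp2 varied by 24.4%, against a median of 13.5% over the 114 genes above 1000 CPM. Bace1 (42.1%), Ncstn (59.1%) and Adam10 (63.2%) lay around the median of 57.4% for the 6106 genes between 10 and 100 CPM. Psen2 (156%) and Aph1a (126%) were above the median of 104.4% for the 4722 genes between 1 and 10 CPM.

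**Figure D5:**
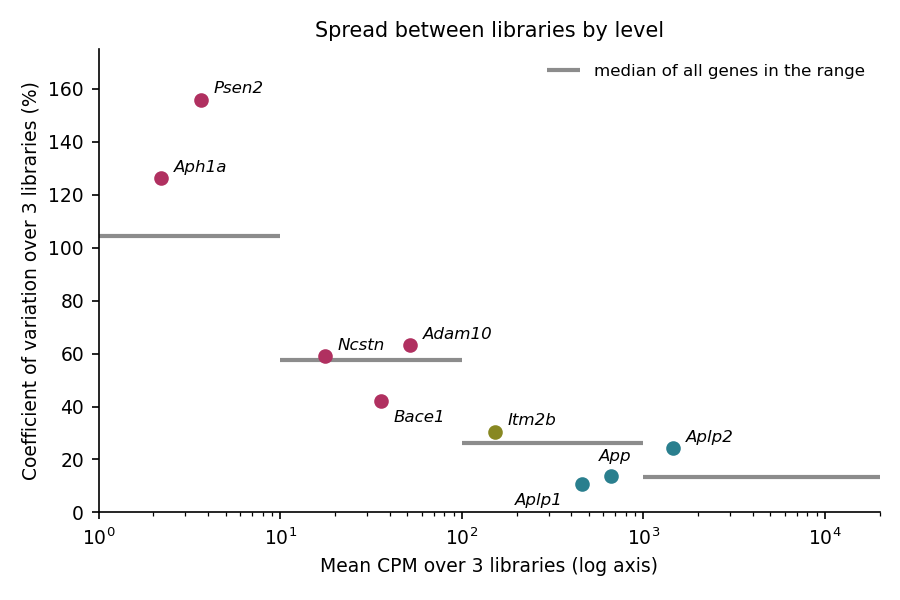
Coefficient of variation (%) over the 3 libraries against mean CPM (log axis) for the 9 genes, coloured by group, with a grey line for the median of all genes in each range of level. Aplp1 and App lie under the line of their range at 10.8% and 13.9%, and Psen2 and Aph1a lie above theirs at 156% and 126%.

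A Poisson chi-square test asked whether a gene varied by more than counting error, with Benjamini-Hochberg adjustment over the 11168 genes that had at least 10 counts in 2 or more libraries. It called all 8 of the genes that entered, Psen2 having failed the filter, but it also called 96.5% of the genes tested, so the count says nothing particular to the 8. The edgeR quasi-likelihood dispersion test asked whether a gene varied more than others of its level and called 0 of the 8 and 0% of all genes (0 of the 8 and 477 of all genes at an unadjusted p under 0.05). The smallest adjusted p among the 8 by the edgeR test was 0.956, for Aph1a, and Aplp2 had 0.959. Since with 3 libraries this test called 0% of all genes, its 0 of the 8 does not show that they vary no more than others of their level.

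Genes whose values over the 3 libraries ran closest to those of App were Slc4a4, a bicarbonate cotransporter gene (4819, 6639 and 6805 counts in replicates 1, 2 and 3), Ankrd17 and Kif5b, a kinesin motor gene. Their root mean square difference from App in log2 deviations was 0.022, 0.025 and 0.033, as the closest of 478 genes within 2-fold of its CPM. For Aplp1 the closest of 739 genes were Cs, the citrate synthase gene (4036, 3823 and 3681 counts), Trim2 and Ghitm, at 0.0059, 0.014 and 0.018. With 3 libraries, close patterns are frequent among so many genes, and these are given as a description only.

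Around the precursors and their enzymes, 86 further pathway genes were listed, of which 70 reached 10 counts in each library and 1 (Tspan10) was at 0 in all 3. Their median level was 7.46 RPKM, against 3.12 RPKM over 13980 genes with a count and a length. Of the 16071 genes with a count in any library, 56% reached 10 counts in each, the share to read beside every pathway list count below. These lists were drawn up from known roles, and their counts and medians describe them without setting them apart from other genes.

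Adaptors of the cytoplasmic tail, which bind the NPxY motif printed above or its surroundings, were mostly present, 11 of 13 with at least 10 counts in every library. Apbb2, a member of the FE65 family, was at 38.2 ± 6.20 RPKM, Apba1 and Apba2, neuronal members of the X11 family, at 34.4 ± 13.9 and 28.1 ± 12.9 RPKM, and Dab1, the reelin pathway adaptor, at 23.4 ± 4.40 RPKM (SD, n = 3 each). The lowest were Shc3 and Apba3, with 0.838 ± 0.74 RPKM (SD, n = 3) for Apba3. These 4 leading adaptors were below App on average per exonic length, although Apba1 matched App in replicate 1 (44.3 against 44.2 RPKM). That match depends on the length used. With its principal transcript as the length, App stood at 180.7 RPKM in replicate 1. For Apba1 the 2 lengths are close, at 6885 exonic bases and 6620 bases in the principal transcript. Apba3 was at a level like those of Aph1a and Psen2.

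All 17 genes for sorting and endocytosis of the precursor had at least 10 counts in every library. Sorl1, the sorting receptor that carries the precursor away from the secretases, was among the steadier at 25.9, 21.7 and 23.7 RPKM in replicates 1, 2 and 3. Of the retromer genes, Vps26b stood at 35.4 ± 4.26 and Vps26a at 25.7 ± 7.22 RPKM, whereas Vps29 was low at 0.918 ± 0.47 RPKM (SD, n = 3 each). Snx27, a retromer partner, stood at 35.1 ± 7.07 RPKM and Gga2, a clathrin adaptor, at 0.36 ± 0.21 RPKM (SD, n = 3 each).

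Rtn1, Rtn3 and Rtn4, genes of reticulons, membrane proteins of the endoplasmic reticulum that bind BACE1, were the highest of the listed pathway genes other than the 9. Rtn2, another reticulon gene, named after its values were seen, had 3, 79 and 8 counts in replicates 1, 2 and 3. Rtn1 stood at 327, 292 and 337 RPKM in replicates 1, 2 and 3, and Rtn3 at 359.6, 262 and 302 RPKM. Rtn4, the Nogo gene, was at 122 ± 47.5 RPKM (SD, n = 3) and highest in replicate 1. Both Rtn1 and Rtn3 were above Aplp2 on average per exonic length, at 319 ± 23.5 and 308 ± 48.8 RPKM against 248 ± 60.5 RPKM (SD, n = 3 each), a difference not tested. Of the 9 modulators, 6 had at least 10 counts in every library; Sppl2a, an intramembrane protease gene that cuts BRI2, was at 10.5 ± 4.34 RPKM, and Gsap and Sppl2b were the lowest at 0.428 ± 0.31 and 0.256 ± 0.34 RPKM (SD, n = 3 each).

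Partners of ADAM10 and ADAM17 were the thinnest of the pathway lists. At 10 counts or more in every library were 4 of its 11 genes, against 56% of the 16071 genes with a count. Tspan5, a tetraspanin that escorts ADAM10, had 1301, 1014 and 798 counts in replicates 1, 2 and 3 and a level of 17.6 ± 5.04 RPKM (SD, n = 3). Tspan17, its close relative, stood at 11.8 ± 6.50 RPKM, and Timp3, an inhibitor of metalloproteases, at 9.97 ± 1.5 RPKM (SD, n = 3 each). Of the exonic bases of Timp3, 21.3% are overlapped by Syn3 on the other strand, so without the strand setting its level is uncertain. Tspan33 had 224, 9 and 28 counts, highest in replicate 1, and Rhbdf2, an ADAM17 partner, had 1, 0 and 0. Tspan5 was thus on average the highest of the ADAM10 tetraspanins listed, although Tspan17 was above it in replicate 2 (19.2 against 15.6 RPKM). The range of Tspan5 overlapped that of Adam10 itself.

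Substrates that share these enzymes were also measured. All 10 BACE1 substrate genes had at least 10 counts in every library, with Sez6l2 at 52.6 ± 19.1, the adhesion molecule L1cam at 51.6 ± 5.37, and the sodium channel beta subunit gene Scn2b at 33.1 ± 10.4 RPKM (SD, n = 3 each). Nrg1, the neuregulin whose cleavage by BACE1 is needed for normal myelin, was lower at 3.48 ± 0.73 RPKM, and Scn3b lowest at 1.204 ± 0.57 RPKM (SD, n = 3 each). Sez6l2 was highest in replicate 1 and lowest in replicate 3, as was Itm2b. Of 10 substrates of ADAM10 and gamma-secretase, 9 had at least 10 counts in every library, with the prion protein gene Prnp at 34.6 ± 13.1, N-cadherin (Cdh2) at 24.7 ± 9.25, Nrcam at 24.6 ± 4.45 and the postsynaptic adhesion gene Nlgn1 at 10.7 ± 0.38 RPKM (SD, n = 3 each). Notch1 and Notch3, receptors in which these cuts release the signalling domain, were low at 1.06 ± 0.63 and 0.426 ± 0.53 RPKM (SD, n = 3 each).

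Genes for the removal of amyloid beta were present in all libraries, 7 of 7 with at least 10 counts in each. Cst3, the cystatin C gene, stood at 41.2 ± 9.48 RPKM and Clu, the clusterin gene, at 26.3 ± 7.76 RPKM (SD, n = 3 each). Among the proteases that degrade the peptide, Ece1 stood at 21.7 ± 9.26 and Ide, the insulin-degrading enzyme gene, at 18.2 ± 4.91 RPKM, whereas Mme, the neprilysin gene, was lowest at 2.06 ± 1.98 RPKM (SD, n = 3 each). Mme had 367, 168 and 29 counts in replicates 1, 2 and 3. Ece2 had 268, 55 and 201 counts; 57.5% of its exonic bases are shared with the overlapping gene Gm49333 on the same strand, so its level is uncertain.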

How the data were processed

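Ribosomes tagged with EGFP were pulled down from homogenised deep cerebellar nuclei and their RNA was sequenced, per the labels' protocols. The authors deposited raw read counts per gene, 1 table per library. STAR 2.0.0e, HTSeq and the build mm10 are named in the submitters' processing notes; no source used here gives the gene annotation, strand setting or library kit. Of the counted reads (assigned, ambiguous or without a feature), 44.1% to 50.2% had no feature and 1.77% to 1.94% were ambiguous. These summary rows were left out of library sizes, and 3710157 to 5263183 multiply aligned reads per library were not counted to genes.

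From the counts, CPM was computed with TMM-scaled library sizes (edgeR 4.0.16, R 4.3.3) and RPKM with exonic lengths of GENCODE release M21 (mm10), matched by symbol. Differences between genes were taken within each library on log2(RPKM + 1), whose pseudocount of 1 understates folds of low genes. They were tested by exact two-sided sign-flip permutation of the 3 values, listing all signs. This function was checked against scipy 1.17.1 on made-up values. Variation between libraries was tested with edgeR's quasi-likelihood dispersion and a Poisson chi-square test over the whole table; both scripts were tested on simulated data. Principal transcripts are the longest that the annotation marks as APPRIS principal, a length added after App values were seen. Genes named from each list are up to 4 of highest and 2 of lowest mean RPKM. A few genes that this picks are left unreported and count only within their lists. Members and lists were chosen with earlier results of these data known. Intervals from a count of 0 cover counting error only, since reads are not independent molecules.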

Additional observations from a re-analysis of the deposited data

How the results depend on the processing

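The 10 differences between genes were recomputed with DESeq2 size factors (DESeq2 1.42.0), without length, with the longest coding transcript or the principal transcript as the length, with a pseudocount of 0.1, with the mean in place of the median where groups were compared, and without each library in turn. Of 53 values from settings with all 3 libraries, 49 kept their direction. App minus Aplp1 turned to 0.53 on CPM and 0.093 with principal transcripts, and Itm2b minus App to -2.15 on CPM and -1.32 with principal transcripts; by construction these settings differ from the exonic one only in the length, which is long for App. Of 30 values without 1 library, 27 kept their direction. Adam10 minus Bace1 ran from -0.075 (without replicate 3) to 1.30, Aph1a minus Psen2 from -0.71 to 0.79 (without replicate 1) and Itm2b minus App from -0.24 (without replicate 1) to 0.33. Precursor family minus secretase genes ran from 4.95 to 5.54 over all settings.

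With edgeR's quasi-likelihood dispersion, 20 genes were called more variable than others of their level when all genes with at least 1 count entered, and 2 to 5 without 1 library, against 0 with all 3 libraries; 0 of the 9 genes were among them, and the cause was not tested. The Poisson test called 7 of 8, 7 of 7 and 6 of 7 genes tested without replicates 1, 2 and 3, where it called 80.5%, 81.8% and 82.2% of all genes tested, and 9 of 9 where all genes entered, with 88.7% of all. No paired analysis was possible because there is 1 group. Means of the lowest genes rest on 1 library: Psen2 had 0.366 CPM without replicate 1, against 3.64 with all 3, and Aph1a had 0.643 CPM without replicate 2, against 2.21. For scale, 3 counts correspond to 0.34 to 0.397 CPM. The cause of the uneven counts of Psen2 and Aph1a was not tested.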
